A study of Homo sapiens with 16 samples.

Results

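Mitophagy, the removal of damaged mitochondria by autophagy, was followed here through the mRNAs of 10 genes: PINK1, SQSTM1, OPTN, BNIP3, BNIP3L, MFN2, PHB2, TAX1BP1, TBK1 and VDAC1. A peak was taken as belonging to a gene where it overlapped the gene's hg19 interval by at least 1 bp on the same strand. Peaks of all 8 lists that overlapped on a strand were joined into regions, and 47 of the 36802 regions of the series, made of 261 of its 175749 peaks, belonged to these genes. They fell in 8 of the 10 genes, and PHB2 and TBK1 held none.

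In the study, RNA held by PABPC1, a protein that coats the poly(A) tails of mRNAs in the cytoplasm, was recovered through its Myc tag and sequenced (RIP-seq). The cells were H1299, an established lung carcinoma line of human origin, with stable expression of tagged wild-type (WT) PABPC1 or of its K512R form, which has arginine in place of a lysine. They were untreated or treated with sodium arsenite (AS) at 500 µM, which causes oxidative stress. The labels do not say whether the stable lines were clones or pools, nor whether replicates were separate cultures. If replicates were not separate cultures, p-values may measure technical spread only. Cell identity was not checked with marker genes, since no gene table of the build of the lists was used here.

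The 8 lists make 4 pairs of replicates, named A to D. Pair A is untreated WT immunoprecipitate (IP) by the sample record, and untreated WT by the name of the list. Pair B is untreated WT input by the record and WT with AS by the name. Pair C is WT with AS, IP, by the record and untreated K512R by the name. Pair D is WT with AS, input, by the record and K512R with AS by the name. The record and the names thus give 6 of the 8 lists different conditions. By the names, each combination of PABPC1 form and treatment has a pair of lists, as many as it has IP samples. By the record, input samples have lists of their own, and the lists cover WT only. This layout goes with the names, but the control library used in peak calling is not stated. The conflict was therefore left open, and both readings are given. B and D together are the input lists by the record and the AS lists by the names, while A and C are the IP lists or the untreated lists. No list was used for the 8 samples recorded as K512R. Lists held 19953 to 25111 peaks each, and read depth is unknown because the lists carry no counts.

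In the best-known route of mitophagy, the kinase PINK1 accumulates on damaged mitochondria and phosphorylates ubiquitin, and the ligase Parkin then coats outer membrane proteins such as MFN2 and VDAC1 with ubiquitin. The receptors SQSTM1 (p62), OPTN and TAX1BP1 bind ubiquitin and the autophagosome, and TBK1 phosphorylates several of them. BNIP3 and BNIP3L (NIX) are mitochondrial membrane proteins that bind autophagosomes directly and need no ubiquitin to do so. PHB2 is a receptor of the inner membrane. The title of the study names mitophagy and U-rich mRNAs held in stress granules as its subject.

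The sequence of the RNA under the peaks could not be read, as no hg19 genome was used. The 250 bases before the start of 4 of the genes are shown instead, from RefSeq (GRCh38.p14), 5′ to 3′ on the strand of the gene. TAX1BP1 and VDAC1 are shown because they held the regions of these genes gained in B against A, nearly all of them in TAX1BP1. BNIP3 is shown because its first bases held a peak in every list, and TBK1 because it had no peak. Where RefSeq lists several starts, the one whose distance to the far end of the gene was closest to the length of the hg19 interval was taken. Capitals mark the E-box CACGTG, a sequence bound by TFEB, a transcription factor of lysosome and autophagy genes.
TAX1BP1: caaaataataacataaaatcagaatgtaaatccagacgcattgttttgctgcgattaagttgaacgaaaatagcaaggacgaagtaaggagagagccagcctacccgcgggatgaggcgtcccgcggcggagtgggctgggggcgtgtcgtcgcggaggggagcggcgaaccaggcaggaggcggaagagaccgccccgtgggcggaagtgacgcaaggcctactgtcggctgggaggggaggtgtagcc
VDAC1: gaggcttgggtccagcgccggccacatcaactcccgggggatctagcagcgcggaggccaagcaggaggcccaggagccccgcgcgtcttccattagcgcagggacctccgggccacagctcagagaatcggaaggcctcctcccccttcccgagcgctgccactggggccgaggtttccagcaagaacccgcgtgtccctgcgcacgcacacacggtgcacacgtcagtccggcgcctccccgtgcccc
BNIP3: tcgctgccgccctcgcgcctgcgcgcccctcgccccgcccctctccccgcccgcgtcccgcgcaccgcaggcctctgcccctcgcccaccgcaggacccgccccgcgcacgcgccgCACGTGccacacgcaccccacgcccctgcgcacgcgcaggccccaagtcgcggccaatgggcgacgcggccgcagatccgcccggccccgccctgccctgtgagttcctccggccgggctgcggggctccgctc
TBK1: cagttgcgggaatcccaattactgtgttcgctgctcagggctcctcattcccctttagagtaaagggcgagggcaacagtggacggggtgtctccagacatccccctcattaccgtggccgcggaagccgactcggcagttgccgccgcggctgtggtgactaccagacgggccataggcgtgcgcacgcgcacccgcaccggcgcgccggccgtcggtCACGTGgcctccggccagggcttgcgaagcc
The stretches lie at chr7:27739912-27740161 (plus strand) for TAX1BP1, chr5:134004976-134005225 (minus) for VDAC1, chr10:131981924-131982173 (minus) for BNIP3 and chr12:64451870-64452119 (plus) for TBK1.

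Both strands were searched for CACGTG, which reads the same on both, and for TGACNNNGC, the core of the antioxidant response element bound by NRF2. RefSeq starts were found for 8 of the 10 genes, all but PINK1 and BNIP3L. CACGTG was present in 2 of the 8, BNIP3 and TBK1, and in 6.34% of the 35116 stretches of the same length before all starts in the table. TGACNNNGC was present in 0 of the 8 and in 10.9% of all. The 2 genes with the E-box had opposite peak content, since BNIP3 held peaks in every list and TBK1 in none.

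Most regions of these genes found in more than 1 list had fixed edges, as did most such regions of the series. The 47 regions had a median width of 154 bp, against 180 bp over all regions, and ranged from 50 bp in VDAC1 to 1547 bp in OPTN. Of the 44 regions found in more than 1 list, 39 (88.6%) had the same start and end in every list that held them, against 76.0% of all such regions. Of the 47, 18 (38.3%) were in all 8 lists, where 29.5% of all regions were, and 3 (6.38%) were in 1 list only, against 17.2%. By gene, 9 of these 18 were in OPTN, 4 in VDAC1, 2 each in BNIP3 and BNIP3L and 1 in PINK1, and SQSTM1, MFN2 and TAX1BP1 had none. No interval held a region on the opposite strand. Gene models of hg19 were not used, so whether a region is exon, intron or untranslated sequence is not stated.

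**Figure D1:**
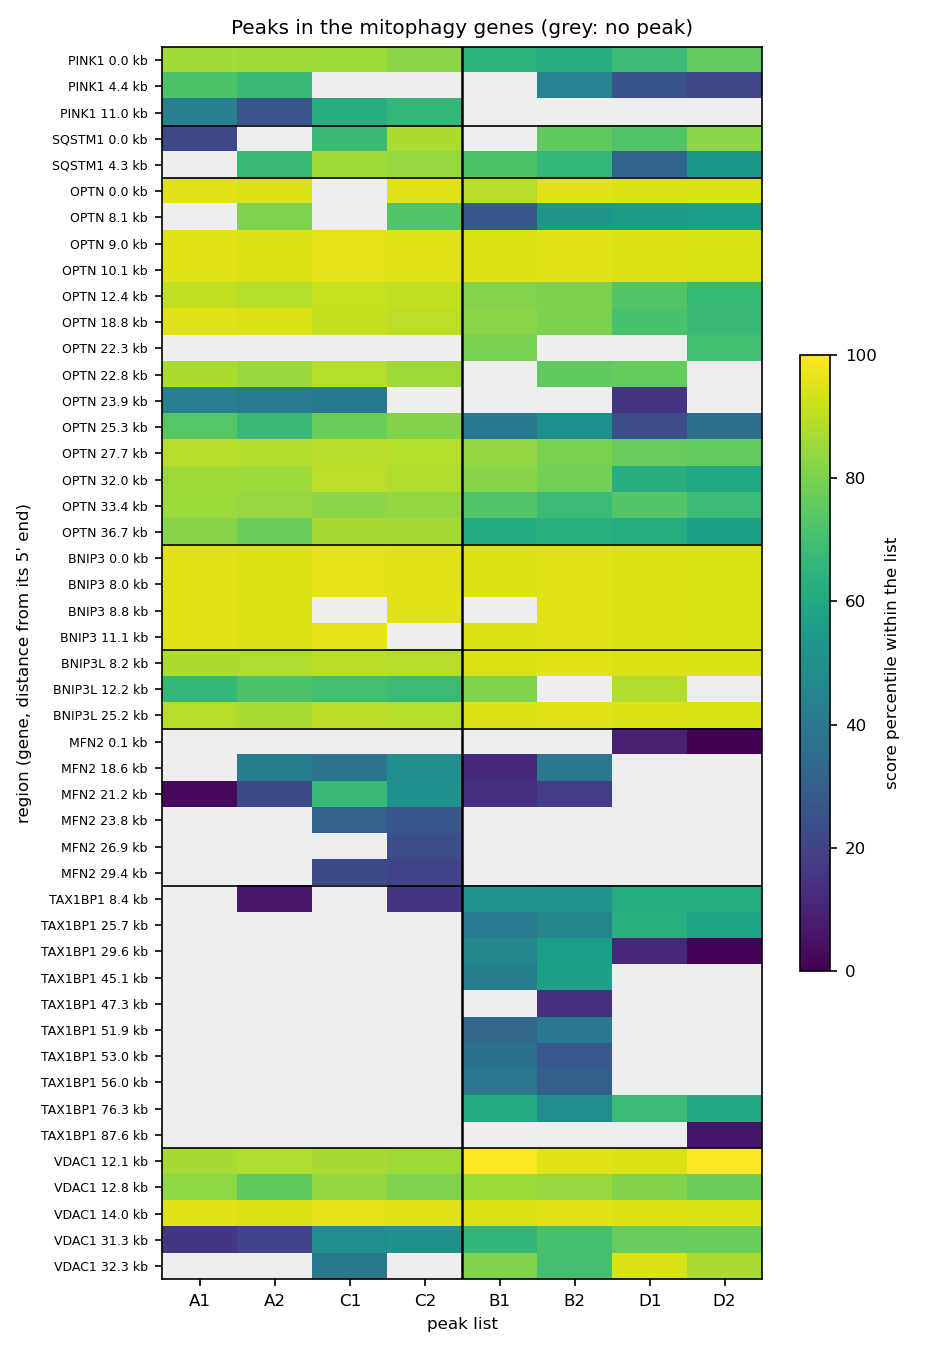
Each line is one of the 47 regions, named by gene and by distance in kb from the gene's 5' end, and each column one peak list, with A and C left of the black line and B and D right of it. Colour gives the percentile of the peak's score within its own list and grey means no peak. Most regions of OPTN, BNIP3, BNIP3L and VDAC1 are filled in at least 6 lists. The exceptions are OPTN at 22.3 kb (2 lists) and 23.9 kb (4 lists) and VDAC1 at 32.3 kb (5 lists). TAX1BP1 is filled almost only in B and D.

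Replicates disagreed on 5 of the 32 regions of these genes found in pair A, 7 of 40 in B, 8 of 35 in C and 5 of 36 in D. That is 13.9% to 22.9%, and over all regions the share was 25.7% to 27.1%. A region was called lost where both lists of the first pair and neither of the second held it, and gained in the reverse case. An exact test of 2 lists against 2 cannot pass 0.05, so these calls carry no p-value.

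TAX1BP1, a receptor that links ubiquitin to the autophagosome, was covered by peaks in B and D and hardly in A and C. It lies on chromosome 7 at 27779714 to 27869386 (plus strand) and held 10 regions. Its peaks numbered 0 and 1 in the lists of A, 0 and 1 in C, 8 and 9 in B, and 4 and 5 in D. The length they covered was 0 and 169 bp in A, 0 and 169 bp in C, 1313 and 1499 bp in B, and 688 and 771 bp in D. All lists of B and D lay above all lists of A and C, with means of 1068 ± 399 and 84.5 ± 97.6 bp (SD, n = 4 each). Each group of 4 pools pairs of different conditions, so its SD also holds any difference between the pairs. The difference of 983 bp had p = 0.0286 in an exact 2-sided permutation test, unadjusted, the smallest that 4 lists against 4 can give, and this test takes all lists as independent. How many other genes part in this way was not computed, as no hg19 gene table was used. Of all 36802 regions, 3417 had an unadjusted p under 0.05 in the same test by region, and so did 4 of the 47 regions of these genes. The 2 lists of B also lay above those of D. By the record these are the input lists against the IP lists, and by the names the AS lists against the untreated ones.

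The first TAX1BP1 region, 8.4 kb from the 5' end of the gene at 27788137 to 27788305, was the one that A2 and C2 also held. It ranked low there, at percentiles 6.79 and 15.2 of the list's scores, and at 52.0 to 62.0 in B and D. Scores come from the authors' caller and rank peaks within a list, so percentiles of lists of different lengths do not measure a change between lists. Regions at 25.7, 29.6 and 76.3 kb were present in every B and D list and absent from every A and C list. They lie at 27805453 to 27805640, 27809295 to 27809453 and 27855968 to 27856139. Over all regions, 3.01% had this pattern, and in these genes 3 of 47 (6.38%), all of them in TAX1BP1 and so not independent. Each had p = 0.0286 in the exact permutation test of covered length, which did not pass Benjamini-Hochberg adjustment over the 36802 regions (adjusted p = 0.308). No region of the series passed it (0%, or 0 of 36802, while 3417 had an unadjusted p under 0.05).

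TAX1BP1 also separated B from D. Regions at 45.1, 51.9, 53.0 and 56.0 kb were in both lists of B and absent from the other 6. Each thus counted as gained from A to B and as lost from B to D, calls that 8.21% and 3.77% of all regions met. The share of all regions found only in both lists of B was not computed. They ranked between percentiles 28.0 and 56.5 in B. A region at 47.3 kb was in B2 alone, and one at 87.6 kb, in D2 alone. Both lists of D thus had peaks between 8.4 and 29.6 kb and at 76.3 kb, and none between these. The region at 29.6 kb was near the bottom of the D lists (percentiles 11.3 and 1.02) and in the middle of the B lists (45.6 and 56.1).

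**Figure D2:**
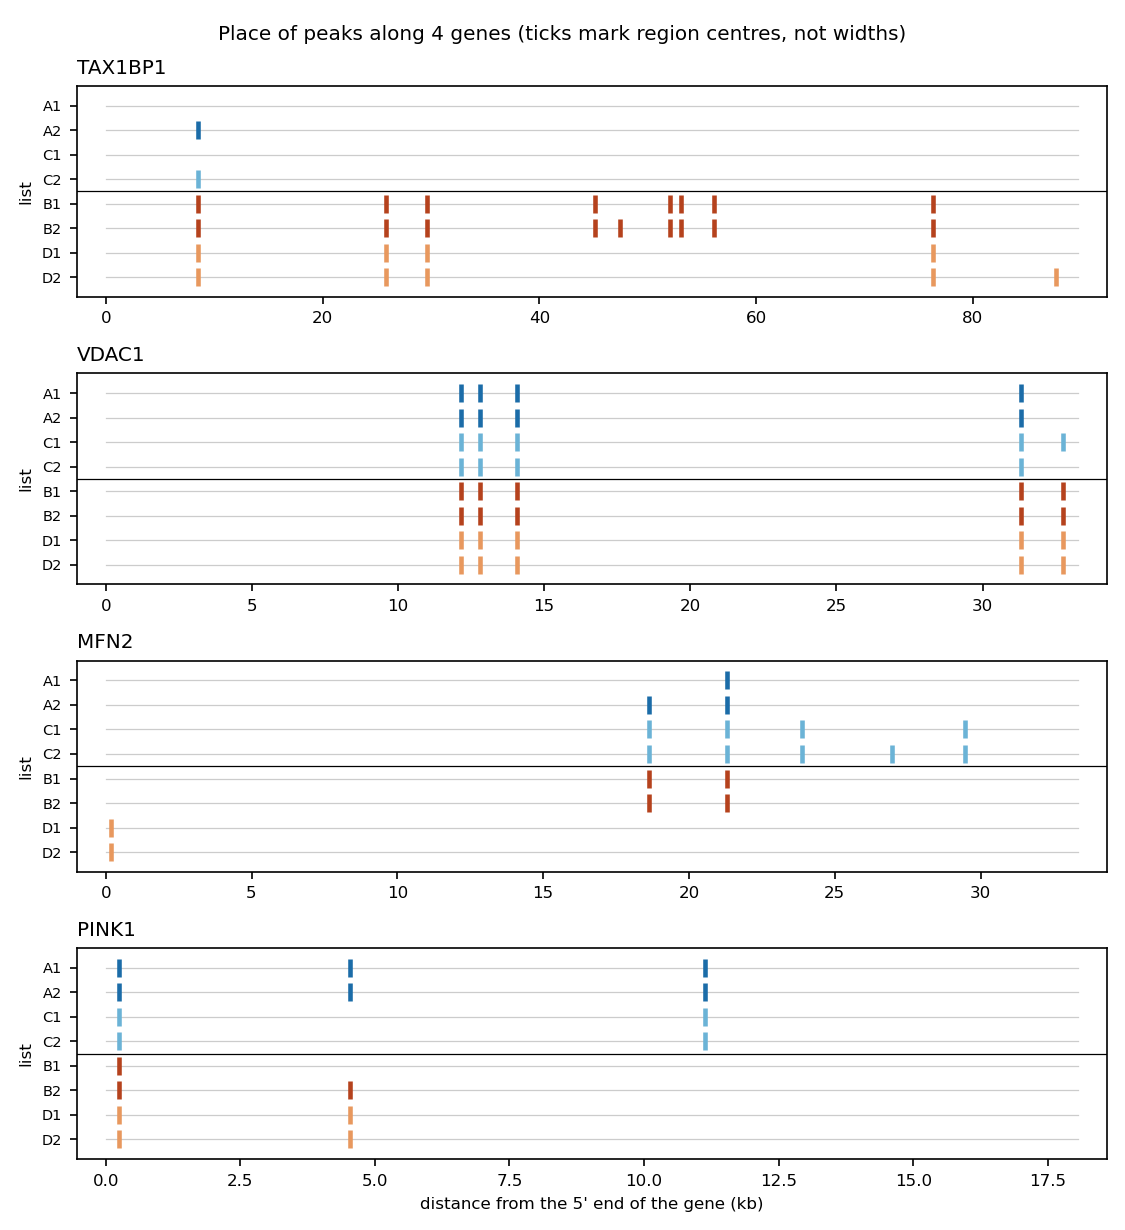
Ticks show the regions with a peak along TAX1BP1, VDAC1, MFN2 and PINK1 in each of the 8 lists. The x axis is the distance from the 5' end of the gene in kb, the black line parts A and C (blue) from B and D (red and orange), and ticks stand for region centres. TAX1BP1 has 8 and 9 peaks in B, 4 and 5 in D and at most 1 in A and C, and MFN2 in D has a peak only at its 5' end.

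The other ubiquitin-binding receptors behaved differently. OPTN, on chromosome 10 at 13142082 to 13180276 (plus strand), held 14 regions and 97 of the 261 peaks. Peaks covered 3564 and 3559 bp of it in A, 3368 and 3599 in B, 3318 and 3600 in C and 3106 and 2947 in D. The lists of D were the lowest, and those of A, B and C overlapped. Between B and D and A and C the difference was -255 bp (exact permutation p = 0.229), and between C and D and A and B it was -280 bp (exact permutation p = 0.143; unadjusted, n = 4 each). Within each list the peaks at 9.0 and 10.1 kb, at 13151097 to 13151288 and 13152180 to 13152476, had a score of 3100, at which many of the high-ranking peaks of a list are tied. The last region, at 13178745 to 13180291, was the widest of all 47, with peaks of 1390 to 1547 bp in A, B and C and of 1158 and 1126 bp in D. Its end lay just past that of the interval.

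OPTN peaks toward the 3' end ranked lower than the pair at 9.0 and 10.1 kb in every list. The last one stood at percentiles 77.0 to 86.9 in A and C and 56.5 to 63.5 in B and D. The region at 23.9 kb (13165995 to 13166110) was lost in B against A, being in both lists of A, C1 and D1. Next to it, the region at 22.3 kb (13164385 to 13164487) was in B1 and D2 alone, which were the lists that lacked the neighbouring region at 22.8 kb (13164864 to 13165198). Replicates thus swapped these neighbours within pairs B and D, and neither counts as lost or gained.

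**Figure D3:**
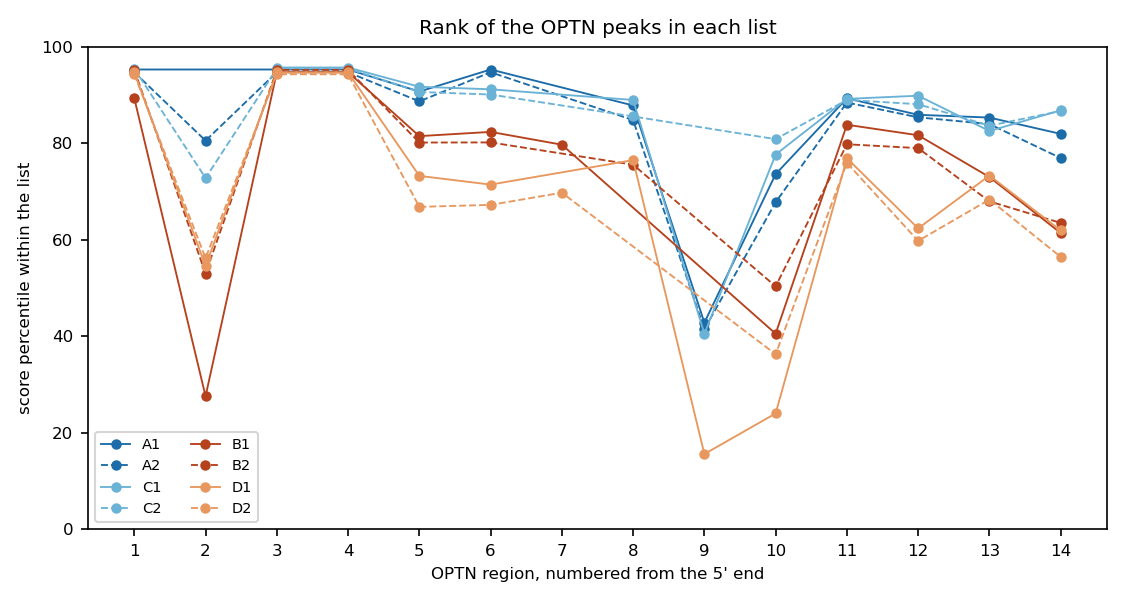
The percentile of each OPTN peak's score within its list is plotted against the region's number from the 5' end, for 8 lists coloured by pair (solid for replicate 1, dashed for 2). Lines skip regions with no peak. Regions 3 and 4 are at about the 95th percentile in every list, and regions 9 to 14 rank lower than they do in every list that holds them.

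SQSTM1, on chromosome 5 at 179247842 to 179265077 (plus strand), held 2 regions. The first began at the first base of the interval (179247842 to 179248141) and was in 6 lists, all but A2 and B1. The second, of 81 bp at 4.3 kb (179252146 to 179252226), was in 7, all but A1. Peaks covered 300 and 81 bp in A, 81 and 381 in B, and 381 in each list of C and D. The replicates of A disagreed on both regions and those of B on the first, and no region was lost or gained. The difference between C and D and A and B was 170 bp (exact permutation p = 0.143, unadjusted, n = 4 each). Without B2 this p was 0.0286, the smallest the test can give. With any other list left out it was 0.143 to 0.257 in the same test.

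PINK1, the kinase that starts the pathway, lies on chromosome 1 at 20959948 to 20978004 (plus strand) and held 3 regions. A region from its first base (20959948 to 20960428, 481 bp) was in all 8 lists and ranked at percentiles 82.6 to 86.0 in A and C and 62.3 to 76.1 in B and D. The third, at 11.0 kb (20970983 to 20971165), was present in every A and C list and absent from every B and D list, the only region of the 47 with that pattern (2.13%), which 5.09% of all regions had. The one between them, at 4.4 kb (20964335 to 20964622), was in both lists of A, in B2 and in both of D, and in neither of C. It was thus lost in C against A and gained in D against C. Its percentiles were 72.1 and 67.8 in A, 44.2 in B2, and 25.4 and 21.9 in D. Peaks covered 952 bp in both lists of A, 664 bp in both of C, 481 and 769 bp in B, and 746 and 769 bp in D. Lists of B and D lay between and below those of A and C, and the difference of -117 bp had an exact permutation p of 0.343 (unadjusted, n = 4 each).

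TBK1, the kinase that acts on OPTN and the other receptors, had no peak in any list in its interval on chromosome 12 (64845840 to 64895899, plus strand). The nearest region found in all 8 lists on that strand was 17437 bp away. PHB2, a receptor of the inner membrane, had none on chromosome 12 at 7074515 to 7079916 (minus strand), and there the nearest region of all 8 lists on the strand was 297234 bp away. A list without a peak does not show that the mRNA was absent or unbound, since depth and the caller's threshold are unknown.

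BNIP3, a receptor of the outer membrane, had the highest median score percentile of the 8 genes with peaks, 94.8 over all lists. It lies on chromosome 10 at 133781204 to 133795435 (minus strand) and held 4 regions, and all of its 29 peaks in 8 lists had the tied score of 3100. Those at the 5' end (133795265 to 133795435) and at 8.0 kb (133787297 to 133787447) were in every list. The region at 8.8 kb was missing from B1 and C1. The region toward the 3' end, at 133783394 to 133784291, was missing from C2 and differed in extent in each of the 7 lists that held it. Its peaks spanned 582 and 898 bp in A, 713 and 457 in B, 460 in C1 and 648 and 349 in D. Covered length of the gene was 407 bp in C2 and 756 to 1305 bp in the other lists. The difference between C and D and A and B was -298 bp (exact permutation p = 0.114, unadjusted, n = 4 each), which is no wider than the spread within pairs A and C.

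BNIP3L, the close relative of BNIP3, held 3 regions in its interval of 30122 bp on the plus strand, and their widths were the same in every list. The 184 bp region at 8.2 kb and the 150 bp region at 25.2 kb were in all 8 lists. Both were among the peaks tied at 3100 in all 4 lists of B and D, and ranked below that tie in every list of A and C. In percentiles this was 94.3 to 95.3 in B and D, the middle of the tie, and 87.4 to 89.8 in A and C. These are places within each list and do not measure a change, and the share of all regions with ranks parted in this way was not computed. The 5' region of PINK1 and the last region of OPTN ranked the other way, higher in A and C. The 73 bp region at 12.2 kb was missing from B2 and D2. Covered length was 334 bp in those lists and 407 bp in the other 6, and no region was lost or gained.

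MFN2, a GTPase that fuses outer membranes, showed opposite patterns in C and D. It lies on chromosome 1 at 12040238 to 12073572 (plus strand) and held 6 regions, 0 of them in all 8 lists. Its peaks numbered 1 and 2 in A, 2 and 2 in B, 4 and 5 in C, and 1 and 1 in D. Covered length was 154 and 263 bp in A, 263 bp in both lists of B, 525 and 722 bp in C, and 170 and 252 bp in D. C lay above every other list, and D below B.

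The MFN2 regions at 23.8 and 29.4 kb (12064049 to 12064175 and 12069649 to 12069783) were in both lists of C and in no other list. The region at 21.2 kb (12061458 to 12061611) was in A, B and C, and that at 18.6 kb (12058827 to 12058935) in the same lists except A1. D held neither, and had instead a region near the 5' end (12040290 to 12040541) that no other list held. The shares of all regions found only in both lists of C, or only in both of D, were not computed. Ranks were poor, from percentile 0.565 to 67.7, and the 5' peaks of D were at 9.34 and 0.565, close to the bottom of their lists. At equal list lengths 1 of the 2 regions gained in C was no longer called. By the record, C against A sets AS against no treatment in IP and D against B the same in input. By the names both set K512R against WT, without and with AS.

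VDAC1, the main outer membrane channel, lies on chromosome 5 at 133307566 to 133340824 (minus strand) and held 5 regions, 4 of them in all 8 lists. The region at its 3' end, 988 bp at 133307566 to 133308553, was in all 4 lists of B and D, in C1, and in neither list of A. It was gained in B against A. Its peak ranked at percentiles 81.2 and 70.5 in B, 94.7 and 87.2 in D, and 40.4 in C1. Covered length was thus 1322 bp in every list of B and D and in C1, and 334 bp in both lists of A and in C2. The difference of 741 bp between B and D and A and C had an exact permutation p of 0.143 (unadjusted, n = 4 each). Without C1 it was 988 bp, with p = 0.0286 in the exact permutation test. With any other list left out, p in that test stayed at 0.143. The neighbouring 58 bp region at 133309482 to 133309539 was in every list, at percentiles 15.9 to 51.0 in A and C and 66.0 to 77.5 in B and D. The 153 bp region at 14.0 kb (133326693 to 133326845) had a score of 3100 in all 8 lists. The 73 bp region at 12.1 kb (133328637 to 133328709) scored above it in B1 and D2, at 3111 and 3154, and equal to it in B2 and D1.

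**Figure D4:**
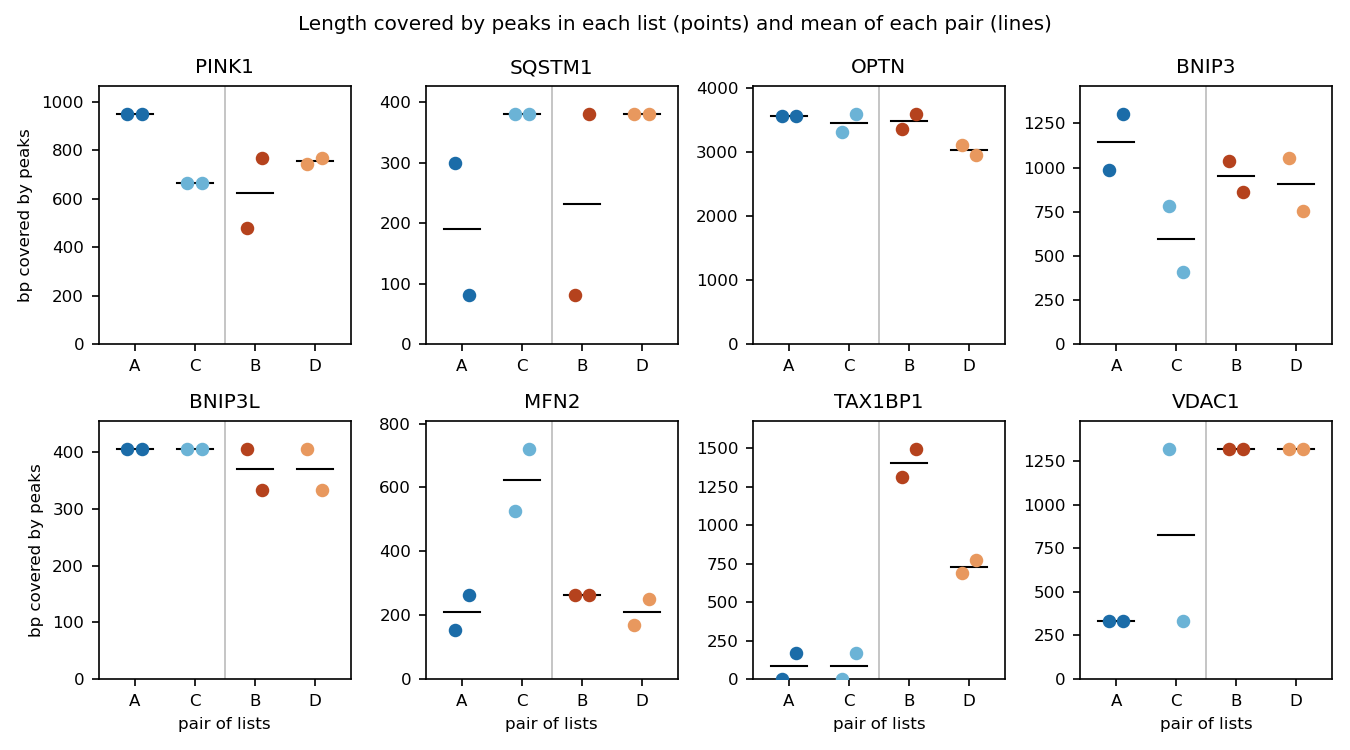
Points give the length in bp covered by peaks in each list for the 8 genes with regions, and lines the mean of each pair (n = 2). The y axes start at 0 and differ between genes. In TAX1BP1 all 4 lists of B and D, at 688 to 1499 bp, lie above all lists of A and C, and in MFN2 the lists of C, at 525 and 722 bp, lie above the rest.

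Lost and gained regions were counted beside the whole series. In B against A, 8 of the 47 regions (17.0%) were gained, 7 in TAX1BP1 and 1 in VDAC1, where 8.21% of all regions were, and 2 (4.26%) were lost, in PINK1 and OPTN, where 9.63% were. The 7 TAX1BP1 regions come from 1 gene and count as 1 observation. In D against C, 5 regions (10.6%) were gained, 3 in TAX1BP1 and 1 each in PINK1 and MFN2, against 6.26% of all. Another 5 (10.6%) were lost, 4 in MFN2 and 1 in PINK1, against 14.4%. In D against B, 6 (12.8%) were lost, 4 in TAX1BP1 and 2 in MFN2, against 3.77%, and 1 (2.13%), in MFN2, was gained, against 2.96%. In C against A, 2 (4.26%) were gained, both in MFN2, against 4.97%, and 1 (2.13%), in PINK1, was lost, against 1.62%. These comparisons share lists, so their counts are not independent of each other.

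Summed over the 10 genes, peaks covered 6700 and 7070 bp in A, 7399 and 6684 in C, 8270 and 9031 in B and 7875 and 7532 in D. Every list of B and D was above every list of A and C, by 1214 bp on average (exact permutation p = 0.0286, unadjusted, n = 4 each). How often other sets of 10 genes part in this way was not computed. Leaving out TAX1BP1 reduced the difference to 230.5 bp, with means of 7109 ± 331 and 6879 ± 381 bp (SD, n = 4 each; exact permutation p = 0.371). Leaving out VDAC1 instead, which was also covered more in B and D on average, reduced it to 473 bp (exact permutation p = 0.229). OPTN, MFN2 and PINK1 had differences of -255, -179 and -117 bp in the same comparison, so the sum in bp does not describe the genes as a group. All peaks of a list covered 8.33 to 9.91 Mb in A and C and 6.699 to 7.15 Mb in B and D, so the sum went the other way from the lists as a whole. As a share of each list's covered length, the summed difference was 0.0402 percentage points (exact permutation p = 0.0286, unadjusted, n = 4 each). This share has a smaller whole in B and D. By share, OPTN and PINK1 turned to higher in B and D, while MFN2 stayed lower. The difference between C and D and A and B was -395 bp (exact permutation p = 0.543).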

How the data were processed

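Peak lists of 8 of the 16 samples were used, 1 list per sample. Cutadapt 1.9.3, HISAT2 2.0.4 and the build hg19 are named in the submitters' processing notes, without order or settings. Peak names begin with MACS, per the files; the sources used here give neither its version, control library and threshold nor how strand was set. For each peak the authors deposited its position, strand and score. The unit of the score is not stated, 1890 to 2243 peaks of a list are tied at 3100, and only ranks inside 1 list were taken from it. A percentile is the share of a list's peaks with a lower score, ties counted by 0.5. Percentiles given for different lists are places within each list and do not measure a change between lists. How many of all regions have ranks that part B and D from A and C was not computed.

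Samples were grouped by title, and each group of 4 lists in a test pools pairs of different conditions. Regions, the gain and loss rule, and exact permutation tests of 4 lists against 4 (70 orders) were computed with Python 3.11.15, numpy 2.4.6 and matplotlib 3.10.9, and adjusted over all regions by the Benjamini-Hochberg method where said; the rules were tested on made-up lists. All members are named, with each one's widest region on average and its lost or gained regions. The planned list of further mitophagy genes was not analysed here, as no hg19 gene table was used. Members and lists were chosen with earlier results of these data known. Starts are counted from 1. Lists were not treated as paired by replicate number (see the closing section). Read counts were not used, so no count model was run and no interval for depth can be given.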

Additional observations from a re-analysis of the deposited data

Results flagged for a closer look

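MFN2 was flagged because its covered length was higher in every list of C than of A, by 415 bp on average, and lower in every list of D than of B, a difference of -52 bp, so that the differences themselves differed by -467 bp. The number of MFN2 peaks went the same way, with 3 more in C than in A and 1 fewer in D than in B, which differ by -4. PINK1 was flagged because its covered length was lower in every list of B than of A, a difference of -327 bp, and higher in every list of D than of C, by 93.5 bp, a difference of 420.5 bp. With 2 lists per pair these differences between differences were not tested. MFN2 peaks had poor scores in all lists. The PINK1 region at 4.4 kb, held by D and not by C, ranked at percentiles 25.4 and 21.9 in D. Its D2 peak lies within the lowest 25% of scores, and without those the region is no longer gained in D against C. The part of score in the MFN2 and PINK1 results was not tested.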

How the results depend on the processing

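The TAX1BP1 difference of B and D from A and C kept its direction under every alternative run, with p = 0.0286 in the exact permutation test except under the replicate block, which permutes labels within replicate number, where p was 0.0556, the smallest it allows. Deviations of same-numbered lists correlated weakly, at 0.011 to 0.030, and lists were not treated as paired by number. All 6 correlations were above 0, and whether lists of the same number shared a batch was not tested. The block took the genes with p under 0.05 from 1 to 0, and the share of each list's covered length and leaving out C1 took them to 2 (VDAC1 added). The summed difference of 1214 bp became 1268 bp at equal list lengths, 1101 bp without the lowest 25% of scores and 1145 bp with intervals widened by 1 kb, each with an exact permutation p of 0.0571, stayed at 1214 bp under the block (0.0556), fell to 230.5 bp without TAX1BP1 and to 473 bp without VDAC1 (p = 0.229), alternatives chosen after their values were seen, and ranged from 929 to 1429 bp with 1 list left out (p 0.0286 to 0.0571). The difference of C and D from A and B ranged from -751 to 25.8 bp with 1 list left out, turning direction without B2, and the genes with p under 0.05 from 0 to 1 (SQSTM1 without B2, OPTN without C2).

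With the share of the list's covered length, the difference of B and D from A and C turned to higher in PINK1 (0.000846 percentage points), OPTN (0.00775) and BNIP3L (0.000816). With 1 list left out it ranged from -48 to 95.25 bp in SQSTM1, below 0 without A2, B2, D1 or D2, and from -97.8 to 201.5 bp in BNIP3, below 0 without C2. None of these passed 0.05. Regions gained in C against A went from 2 to 1 at equal list lengths, 4 without the lowest 25% of scores and 4 where a peak in 1 list sufficed; those gained in D against C from 5 to 3 without the lowest 25%; those gained in D against B from 1 to 0, 0 and 3 under the same settings as for C against A. With 1 list per pair the rule is looser by construction: lost regions numbered 3 to 6 in B against A, 3 in C against A, 5 to 8 in D against C and 7 to 8 in D against B, and gained ones 10 to 13, 4 to 5, 9 and 3 to 6. The cause of the other changes was not tested. Joining peaks at an overlap of 0.5 of the shorter, ignoring strand, requiring peaks wholly inside and widening intervals moved no count past 1.5 times. Depth is unknown, so a missing peak may lie below the caller's threshold.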
